A study of Mus musculus with 4 samples.

Results

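Ribosome footprints on 43 mouse genes of the lysosome were examined in primary myoblasts. The genes were chosen by name. They comprised 20 named genes, namely the 3 transcription factors of the TFEB family, 11 luminal enzymes and their activator, and 6 membrane and cholesterol transport proteins, together with 23 protein-coding genes whose symbol begins with Atp6v. By their symbols 14 of the 23 belong to the V1 sector and 9 to the V0 sector of the vacuolar proton pump, except that Atp6v1fnb carries the name of its neighbour Atp6v1f. The deposited table held 55573 genes.

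The measurement was Ribo-seq, in which the mRNA stretches covered by ribosomes are protected from nuclease and sequenced. Primary myoblasts, which descend in culture from muscle stem cells, were taken from hind-limb muscle of 3-week-old mice and kept as proliferating cells until day 2 in medium with serum and FGF (10 µg/ml, per the labels), and all were given cycloheximide (100 µg/ml) before lysis. The 2 groups were WT and eIF5A knockout (KO), with 2 libraries each. Per the study, KO mice were Pax7CreERT2/+;eIF5A f/f and received tamoxifen, so that the deletion occurs only in cells that express Pax7. The WT controls are described in one place as Pax7CreERT2/+ and in another as Pax7+/+;eIF5A f/f mice. The sources used here do not say whether the libraries came from separate mice, and the p-values then measure only the spread between these libraries. The comparison asks which mRNAs carry more or fewer ribosomes when eIF5A, a translation factor activated by spermidine-dependent hypusination, is deleted. Footprints were not set against mRNA levels here, so they are no measure of translation per mRNA.

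Lysosomes are acidic compartments in which hydrolases degrade proteins, lipids and glycans delivered by endocytosis and autophagy. The acid is supplied by the V-ATPase, in which the cytosolic V1 sector hydrolyses ATP and the membrane-bound V0 sector moves protons into the lumen. TFEB, TFE3 and MITF are related transcription factors that are held in the cytosol by mTORC1 in fed cells, and bind the CLEAR element, a stretch around the core CACGTG, in the promoters of many lysosomal genes. In muscle, loss of LAMP2 or of acid alpha-glucosidase (Gaa) causes storage myopathies.

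The libraries held between 642429 and 704006 gene-assigned reads. Protein-coding genes took 41.5% and 33.9% of these in WT and 65.4% and 59.2% in the KO-labelled libraries, and mitochondrial rRNA took 39.1% and 30.1% in WT and 15.0% and 18.5% in the KO-labelled libraries. Values per total of reads include this shift, whose part in them was not tested. The deposited RPKM (reads per kilobase of gene length on a common library scale) had been scaled by the authors so that the typical gene is level between libraries. A change shared by most genes is therefore not visible in them, and the values were also computed per total of reads. Eif5a itself (ENSMUSG00000078812, chromosome 11, 69916714 to 69921958, minus strand, GRCm38) was at 34.9 and 65.2 RPKM in WT against 60.3 and 59.4 RPKM in the KO-labelled libraries, a log2 difference of 0.32 ± 0.48 (SE) whose adjusted p-value by limma was 0.839. On total reads it was 0.92, with both KO-labelled libraries above both WT libraries (adjusted p-value 0.330). With all 4 libraries the targeted gene is thus not lower in the KO-labelled libraries on either scale. Its log2 difference ran from -0.12 to 0.76 when a library was left out. Every direction given here is that of the KO-labelled libraries relative to WT. The chi-square per degree of freedom between replicates was 6.94 for WT and 5.28 for KO, far above the value of about 1 that counting noise gives, so no library repeats another. It was 3.61 between WT replicate 2 and KO-labelled replicate 2, below both values for replicates. This measure rises with depth, which differs between the pairs, so the values do not rank the distances. Summed over 9 myoblast markers, the level was 247 and 195 RPKM in WT against 119 and 130.2 RPKM in the KO-labelled libraries. Among them Pax7, Myf5, Myod1 and Des lay below both WT libraries, Vcam1 lay above them with a log2 difference of 0.92, and Itga7 was at -0.02. The 10 fibroblast markers summed to 675 and 481 RPKM in WT against 1101 and 539 RPKM in the KO-labelled libraries. In bulk libraries fewer cells of a type and fewer footprints per cell cannot be told apart. Macrophages and osteoclasts are rich in lysosomes and pumps. The 15 macrophage markers summed to 64.4 and 97.2 RPKM in WT against 91.6 and 85.2 RPKM in the KO-labelled libraries, and Itgam and C1qa had no read. Among those tested, Cd14, Ctss and Adgre1 lay above both WT libraries, Cd68, Lyz2 and Mrc1 below them, and Tyrobp and Laptm5 overlapped. Ctss is also in the list of other hydrolases. The 7 osteoclast markers summed to 12.5 and 33.7 RPKM in WT against 49.2 and 20.3 RPKM in the KO-labelled libraries, nearly all of it from Ctsk, which gave 10 and 24 of the 14 and 24 reads in WT and 66 and 24 of the 70 and 25 reads in the KO-labelled libraries and is also in the list of other hydrolases. Dcstamp and Oscar had 0 reads. The 5 endothelial markers summed to 106 and 99.8 RPKM in WT against 139 and 112 RPKM. As shares of all reads the myoblast markers overlapped between groups, at 0.0773% and 0.0465% in WT against 0.0777% and 0.0566% in the KO-labelled libraries. The macrophage markers took 0.0103% and 0.0112% in WT against 0.0196% and 0.0172%, the fibroblast markers 0.375% and 0.206% against 0.864% and 0.3996%, and the osteoclast and endothelial markers likewise lay above both WT libraries. The part of these cells in the results was not tested.

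Of the 43 genes, 35 had a mean RPKM of at least 1 and were tested. The other 8 were all pump genes, of which 7 had no read in any library and Atp6v0a4 had 1 read. The median tested lysosomal gene had 156 reads over the 4 libraries, against 54 for all genes tested.

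No lysosomal gene passed the test. The smallest adjusted p-value among the 35 genes was 0.676 (limma on log2(RPKM + 1), adjusted over 11363 genes), and none reached an unadjusted p-value under 0.05, which 7.32% of all genes tested and 5.97% of protein-coding genes did. An adjusted p-value under 0.05 was found for 0.106% of all genes and 0.0% of protein-coding genes. A difference of 2-fold or more was measured for 2 of the 35 genes, Ctsl and Atp6v1g1, against 13.2% of protein-coding genes. No gene had an adjusted p-value under 0.05 in any of the 14 other ways of processing, voom on recovered reads included, and with voom only Ctsl and Atp6v1g1 combined an unadjusted p-value under 0.05 with 2-fold or more, which 9.57% of protein-coding genes did. More genes lay above 0 than below. The log2 difference was above 0 for 25 of the 35 genes, or 71.4%, against 53.1% of protein-coding genes, and its median was 0.27 against 0.05. Both KO-labelled libraries lay above both WT libraries for 12 genes, or 34.3%, where the share among protein-coding genes was 22.4%. They lay below both WT libraries for 3 genes, Tfe3, Atp6v1g1 and Atp6v0c, or 8.57%, against 19.3%. These are counts without a test. With reads scaled to library totals 31 of 35 genes were above 0, and 24 lay above both WT libraries and 0 below, against 77.5%, 46.5% and 6.11% of protein-coding genes. With the trend on coding GC content and length removed the median was 0.13 against 0.04, and 9 genes lay above both WT libraries and 4 below, against 21.4% and 18.7% of protein-coding genes. An unadjusted p-value under 0.05 with at least 2-fold was then reached by Atp6v1g1 alone (6.15% of protein-coding genes), and on total reads by 9 genes, all higher (15.4%).

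**Figure D1:**
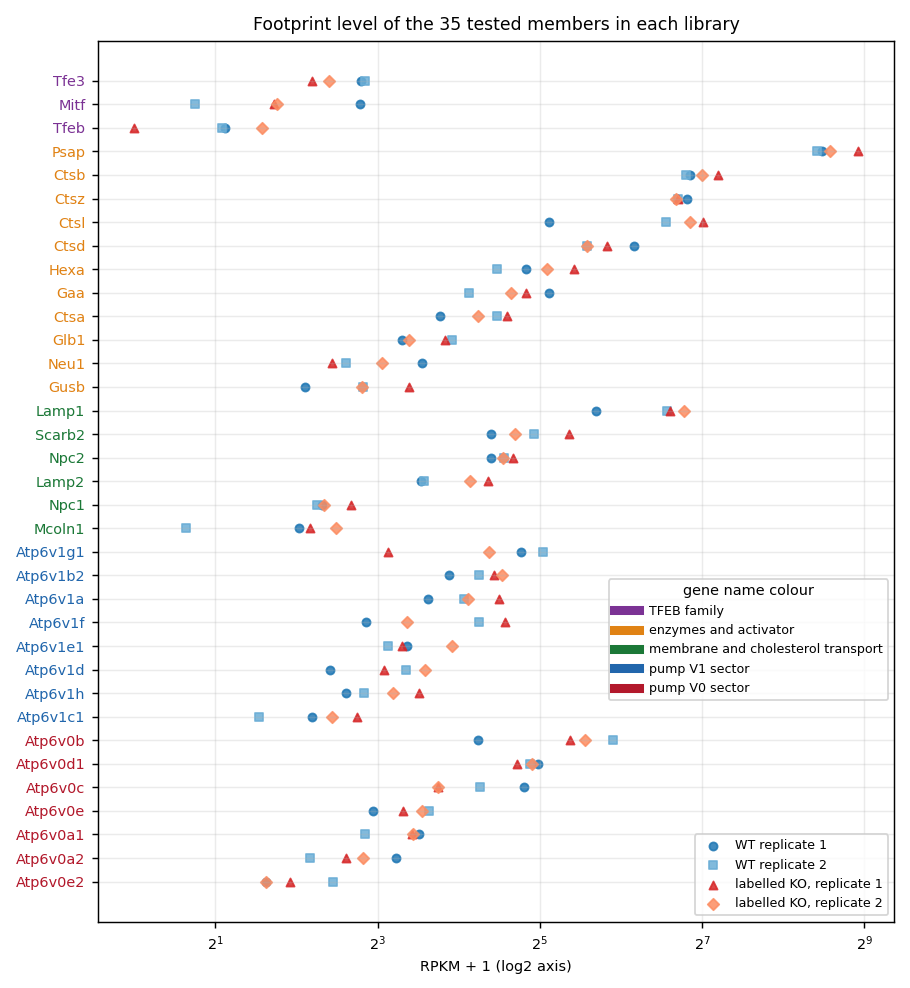
Level of each of the 35 tested genes in every library, as RPKM + 1 on a log2 axis, with 1 marker per library and gene names coloured by role. Psap is the highest gene in every library and Tfeb has the lowest mean, with 0 in KO-labelled replicate 1.

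The plot of levels by library shows how wide the range was, from a mean of 390 RPKM for Psap to 1.06 RPKM for Tfeb.

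The TFEB family carried few footprints, and the log2 difference of all 3 genes was below 0, although that of Mitf was 0.35 on total reads and 0.029 with quantile normalization and that of Tfeb 0.030 after correction for GC content and length. Tfe3 (ENSMUSG00000000134, chromosome X, 7762560 to 7775202, plus strand) was the most covered, at 5.91 and 6.19 RPKM in WT against 3.57 and 4.28 RPKM in the KO-labelled libraries. The WT values were close together and both lay above both others. The log2 difference was -0.52 ± 0.36 (SE) (95% interval -1.40 to 0.35, adjusted p-value 0.697). Removing the trend on coding GC content and length brought it to -0.24, and scaling to total reads to -0.01, where the groups overlapped.

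Mitf, which also drives the melanocyte lineage, was at 5.89 and 0.685 RPKM in WT against 2.31 and 2.40 RPKM in the KO-labelled libraries. Its WT libraries held 22 and 2 reads and enclosed the other libraries, and the log2 difference of -0.02 ± 0.72 (SE) became 0.99 without WT replicate 1 and -1.04 without WT replicate 2. Tfeb (chromosome 17, 47737030 to 47792419, plus strand) rested on few reads, with 4 and 3 in WT against 0 and 9 in the KO-labelled libraries. At this depth neither a loss nor a gain of Tfeb footprints could be detected: the 95% interval of its log2 difference ran from -2.34 to 1.70.

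The element that these factors bind was looked for in RefSeq promoter windows of build GRCm38.p6, from 250 bases before to 50 bases after each annotated start, of which 35 of the 43 genes had at least 1. The core CACGTG, which reads the same on both strands, was found in 11 of these 35 genes, or 31.4%, against 8.09% of all 27025 genes with a window. The longer TCACGTGA, which contains the core, was found in 6 of 35 genes (17.1%, against 1.13%), and no window of the 35 genes held that match with a further G before and C after it (against 0.370% of genes). A match is a match of letters and not evidence of binding. Up to 30 bases around the match are shown for the 4 genes whose longer match lies before a RefSeq start. They are also shown for Lamp1 and Ctsl, which had the core alone and whose KO-labelled libraries lay above WT. Atp6v0b, Gaa and Glb1, whose groups overlapped, also had the core alone before a start and are not shown. Matches are in capitals. In GENCODE vM21 the Lamp1 stretch lies upstream of the gene and that of Atp6v1a in an intron, whereas those of Mcoln1, Ctsd and Ctsa and 15 bases of that of Ctsl fall in untranslated exons of transcripts that start further upstream.
Mcoln1 (chr8:3500462-3500491, plus strand): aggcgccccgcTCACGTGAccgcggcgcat
Ctsd (chr7:142387908-142387937, minus strand): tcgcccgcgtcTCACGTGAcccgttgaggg
Ctsa (chr2:164833749-164833772, plus strand): tgagcaaactgTCACGTGAtgcag
Atp6v1a (chr16:44139373-44139402, minus strand): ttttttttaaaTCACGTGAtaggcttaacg
Lamp1 (chr8:13159088-13159117, plus strand): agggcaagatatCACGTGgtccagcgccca
Ctsl (chr13:64370739-64370768, minus strand): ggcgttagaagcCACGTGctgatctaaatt
The Lamp1 window held the core 4 times and those of Mcoln1, Ctsd and Ctsa 2 times each. The median log2 difference was 0.29 over the 11 genes with the core, all of them tested, and 0.26 over the 17 tested genes whose windows lacked it, with 9 of 11 and 10 of 17 genes above 0. The KO-labelled libraries lay above WT for 4 of the 11 genes (Ctsl, Lamp1, Mcoln1 and Atp6v1a) and for 3 of the 17 (22.4% of protein-coding genes), and below for 0 and 2 (19.3%). This split covers only the 28 tested genes with a window. Over all 35 tested genes 12 lay above WT and 3 below, so some of these are in neither class.

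Among the luminal enzymes 8 of 11 genes had a positive log2 difference and 3 a negative one, with a median of 0.27, and on total reads all 11 were positive. The KO-labelled libraries lay above both WT libraries for Psap, Ctsb, Ctsl and Hexa (22.4% of protein-coding genes) and below for none (19.3%), and on total reads for 8 of 11 (46.5%). The median was 0.12 without KO-labelled replicate 1. Psap (ENSMUSG00000004207, chromosome 10, 60277627 to 60302597, plus strand), whose precursor is cut into the saposins that present sphingolipids to their hydrolases, was at 355 and 339.6 RPKM in WT against 485 and 379 RPKM in the KO-labelled libraries. It was above 99.8% of the protein-coding genes tested. The gap between the groups was smaller than the spread within the KO-labelled libraries, and the log2 difference was 0.30 ± 0.52 (SE). It was 0.92 on total reads, 1.17 with quantile normalization and 0.13 without KO-labelled replicate 1.

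Ctsl (ENSMUSG00000021477, chromosome 13, 64359337 to 64370890, minus strand), a cysteine protease of the lysosome, had a difference of over 2-fold. It was at 33.5 and 92.9 RPKM in WT against 127.6 and 115 RPKM in the KO-labelled libraries, from 131, 284, 751 and 601 reads. The WT libraries differed from each other far more than the KO-labelled libraries did. The log2 difference was 1.10 ± 0.60 (SE) (95% interval -0.38 to 2.58, adjusted p-value 0.691). It was 0.38 without WT replicate 1 and 1.82 without WT replicate 2, so that its size rests on which WT library is taken. Hexa, the alpha subunit of beta-hexosaminidase, was at 27.4 and 21.3 RPKM in WT against 42.0 and 32.9 RPKM in the KO-labelled libraries, with a log2 difference of 0.60 ± 0.41 (SE). Gusb, the beta-glucuronidase, was at 3.28 and 6.07 RPKM in WT against 9.45 and 5.99 RPKM in the KO-labelled libraries. Its groups overlapped, and the log2 difference was 0.64 ± 0.44 (SE), with a range of 0.27 to 1.00 when a library was left out (0.27 without WT replicate 1, 0.35 without KO-labelled replicate 1 and 1.00 without WT replicate 2).

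The other cathepsins had smaller differences, whose distance from that of Ctsl was not tested, and all 5 cathepsins were positive on total reads, from 0.44 for Ctsd to 1.71 for Ctsl. Ctsb, a cysteine protease like Ctsl, was at 115 and 110.1 RPKM in WT against 146 and 127 RPKM in the KO-labelled libraries. Ctsz, a carboxypeptidase, was nearly level, at 112 and 103 RPKM in WT against 103 and 101 RPKM in the KO-labelled libraries, and the 95% interval of its log2 difference ran from -1.15 to 1.01. Ctsd, the aspartic protease, had a log2 difference of -0.17 and Ctsa, the protective protein of Neu1 and Glb1, one of 0.29, and both overlapped between groups. The other glycosidases, Gaa, Glb1 and Neu1, had log2 differences of 0.12, 0.00061 and -0.33, all with overlapping groups. After correction for GC content and length Gaa was at 0.47 with the KO-labelled libraries above WT, and Glb1 and Neu1 were both at -0.01.

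The 6 membrane and cholesterol transport genes had a median log2 difference of 0.46 (0.19 without WT replicate 1, 0.59 without KO-labelled replicate 2). All 6 genes had a positive log2 difference, from 0.12 for Npc2 to 0.99 for Mcoln1. For 4 of them, Lamp1, Lamp2, Npc1 and Mcoln1, the KO-labelled libraries lay above both WT libraries, as for 22.4% of protein-coding genes. This held for 6 of 6 on total reads (46.5%) and for 3 with the GC and length trend taken out (21.4%). Lamp2 (ENSMUSG00000016534, chromosome X, 38401357 to 38456454, minus strand), a glycoprotein of the lysosomal membrane with a part in autophagosome fusion, was at 10.6 and 10.9 RPKM in WT against 19.5 and 16.6 RPKM in the KO-labelled libraries. Both groups were tight beside the gap between them. The log2 difference was 0.69 ± 0.37 (SE) (95% interval -0.22 to 1.61, adjusted p-value 0.689). It ran from 0.58 to 0.80 when a library was left out and was 0.38 with the GC and length trend removed, Lamp2 having the lowest coding GC content of the 35 genes (42.5%).

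Lamp1 (chromosome 8, 13159161 to 13175338, plus strand), its close relative, was at 50.8 and 93.6 RPKM in WT against 96.4 and 108 RPKM in the KO-labelled libraries. WT replicate 2 was close to both KO-labelled libraries, and the log2 difference of 0.56 ± 0.50 (SE) was 0.13 without WT replicate 1 and 0.99 without WT replicate 2. Mcoln1, a cation channel that releases lysosomal calcium, was at 3.07 and 0.562 RPKM in WT against 3.502 and 4.59 RPKM in the KO-labelled libraries. WT replicate 2 held 2 reads, and without it the log2 difference of 0.99 ± 0.57 (SE) was 0.30, against 1.68 without WT replicate 1. It was 1.504 with a pseudocount of 0.1. Scarb2, the receptor that carries beta-glucocerebrosidase to lysosomes, overlapped between groups, at 20.1 and 29.4 RPKM in WT against 40.2 and 24.8 RPKM in the KO-labelled libraries, and its log2 difference of 0.37 ± 0.46 (SE) was 0.03 without KO-labelled replicate 1 and 0.70 without KO-labelled replicate 2. Npc1 and Npc2 pass cholesterol out of the lysosome. Npc1 was at 3.96 and 3.75 RPKM in WT against 5.36 and 4.05 RPKM in the KO-labelled libraries, and Npc2 was at 20.1 and 22.6 RPKM in WT against 24.3 and 22.3 RPKM in the KO-labelled libraries.

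**Figure D2:**
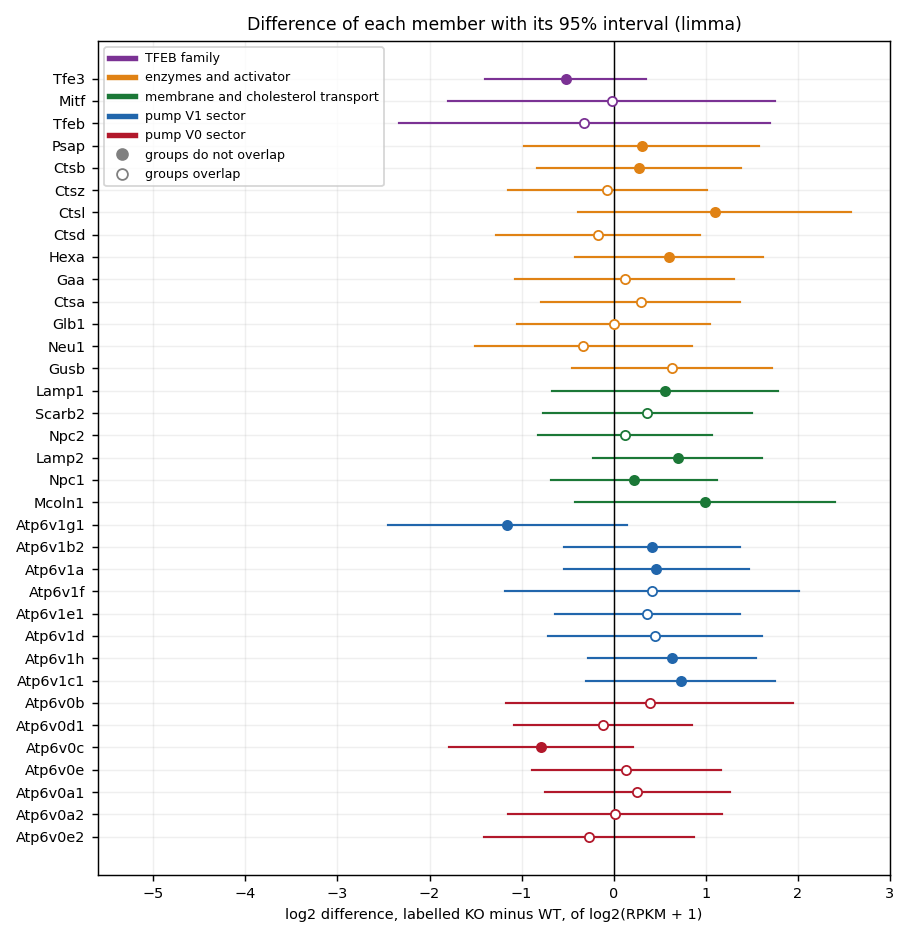
Log2 difference (KO-labelled libraries minus WT, log2(RPKM + 1) scale) of each of the 35 tested genes, with its 95% interval from limma and colours for role. Filled points mark genes whose groups do not overlap, and the interval of every gene includes 0.

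The pump subunits did not all lie on the same side of 0. In the V1 sector 7 of the 8 tested genes had a positive difference, with a median of 0.43 that was 0.24 without WT replicate 1 and 0.65 without WT replicate 2. The KO-labelled libraries lay above WT for Atp6v1a, Atp6v1b2, Atp6v1h and Atp6v1c1 (22.4% of protein-coding genes), and on total reads for 6 of the 8 (46.5%). With the GC and length trend removed they did so only for 2, Atp6v1b2 and Atp6v1h (21.4%), and the V1 median was 0.30. Atp6v1a and Atp6v1b2 form the ATP-hydrolysing head. Atp6v1a (ENSMUSG00000052459, chromosome 16, 44085402 to 44139705, minus strand) was at 11.3 and 15.8 RPKM in WT against 21.5 and 16.4 RPKM in the KO-labelled libraries, with a log2 difference of 0.46 ± 0.41 (SE) that was 0.24 without WT replicate 1 and 0.28 without KO-labelled replicate 1. Atp6v1b2 was at 13.8 and 18.0 RPKM in WT against 20.6 and 22.2 RPKM in the KO-labelled libraries.

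Atp6v1h and Atp6v1c1 sit where V1 meets V0. Atp6v1h was at 5.11 and 6.10 RPKM in WT against 10.4 and 8.13 RPKM in the KO-labelled libraries, with a log2 difference of 0.63 ± 0.37 (SE) that ran from 0.47 to 0.79 when a library was left out. Atp6v1c1 was at 3.55 and 1.89 RPKM in WT against 5.71 and 4.42 RPKM in the KO-labelled libraries, with a log2 difference of 0.73 ± 0.42 (SE) that was 0.41 without WT replicate 2. The exception was Atp6v1g1 (ENSMUSG00000039105, chromosome 4, 63544772 to 63550750, plus strand), a subunit of the stalk that holds the head. It was at 26.3 and 31.8 RPKM in WT against 7.77 and 19.6 RPKM in the KO-labelled libraries, from 18, 17, 8 and 18 reads. Neither KO-labelled value reached the WT range. The log2 difference was -1.15 ± 0.53 (SE) (95% interval -2.45 to 0.14, adjusted p-value 0.676). It was -0.54 without KO-labelled replicate 1, -1.77 without KO-labelled replicate 2, and -0.57 on total reads, where the groups overlapped. Atp6v1e1, its partner in the stalk, had a log2 difference of 0.37, and Atp6v1d and Atp6v1f of the central shaft had 0.45 and 0.42, all with overlapping groups.

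The V0 sector had a median log2 difference of 0.02, with 4 of 7 tested genes above 0 and 3 below (6 above on total reads, 3 after correction for GC content and length). The median was -0.21 without WT replicate 1 and 0.13 without KO-labelled replicate 1. It was -0.23 after correction for GC content and length and 0.52 on total reads. The KO-labelled libraries lay above WT for no V0 gene (22.4% of protein-coding genes), against 4 on total reads (46.5%). Atp6v0c (ENSMUSG00000024121, chromosome 17, 24163866 to 24169702, minus strand), the proteolipid that makes up most of the proton-carrying ring, was at 27.0 and 18.2 RPKM in WT against 12.38 and 12.44 RPKM in the KO-labelled libraries. The KO-labelled libraries agreed closely, and both lay below WT. The log2 difference was -0.79 ± 0.40 (SE) (95% interval -1.78 to 0.21, adjusted p-value 0.680), and was -0.52 without WT replicate 1 and -1.06 without WT replicate 2. On total reads it was -0.21 and the groups overlapped. The table also holds 2 processed pseudogenes of Atp6v0c, both without a read. Whether reads shared between such copies were kept or dropped is not given in the sources used here, so the level of Atp6v0c is uncertain.

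Atp6v0b, the other ring proteolipid, had the highest mean level of the genes whose symbol begins with Atp6v, at 17.8 and 59.0 RPKM in WT against 40.3 and 45.9 RPKM in the KO-labelled libraries. WT replicates stood on either side of the KO-labelled libraries, and the log2 difference of 0.39 ± 0.63 (SE) was -0.45 without WT replicate 1 and 1.23 without WT replicate 2. Atp6v0d1, which couples the ring to the central shaft, was nearly level at 30.5 and 28.4 RPKM in WT against 25.2 and 29.0 RPKM in the KO-labelled libraries. Atp6v0a1, the a subunit that carries the proton half-channels, was at 10.4 and 6.15 RPKM in WT against 9.75 and 9.82 RPKM in the KO-labelled libraries.

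For the B, C, E, G and d subunits of the pump, each encoded by several genes, the footprints lay on 1 widely expressed copy. Atp6v1b2, Atp6v1c1, Atp6v1e1 and Atp6v1g1 had between 61 and 283 reads over the 4 libraries, whereas Atp6v1b1, Atp6v1c2, Atp6v1e2, Atp6v1g2 and Atp6v1g3, which are known from kidney, testis, brain and other specialised tissues, had 0. Atp6v0d1 had 140 reads and Atp6v0d2, known from osteoclasts, had 0. A count of 0 allows up to 3 reads, which in WT replicate 2, the library with the highest floor, is 1.45 RPKM for Atp6v1b1 and 4.89 RPKM for Atp6v1e2. The a subunit differed. Per gene length its a3 gene Tcirg1, known from osteoclasts and outside the symbol rule, had the highest mean level, with 14.9 RPKM from 202 reads. Atp6v0a1 was at 9.02 RPKM from 170 reads and Atp6v0a2 at 5.75 RPKM, while Atp6v0a4 had 1 read. By reads Tcirg1 had 30 and 26 in WT and 82 and 64 in the KO-labelled libraries. Atp6v0a1 had 41 and 19 in WT and 58 and 52 in the KO-labelled libraries, and was thus ahead in WT replicate 1. The small e subunit was carried mainly by Atp6v0e, with a mean of 9.43 RPKM, against 2.85 RPKM for Atp6v0e2. Atp6v0e2 rested on 3, 5, 6 and 4 reads, and its log2 difference was -0.27 ± 0.46 (SE).

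**Figure D3:**
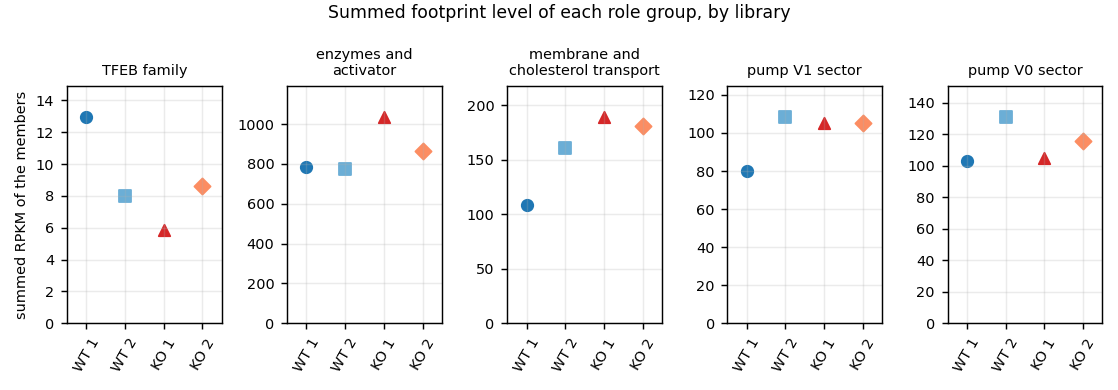
Summed RPKM of the genes of each role in each library, 1 marker per library, with each axis starting at 0. The enzymes sum to 782 and 777 in WT and 1037 and 867 in the KO-labelled libraries, whereas the V0 sector runs from 103 to 131 with the groups mixed.

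Summed over their genes, the roles differed in how the libraries were ordered, as the plot of summed levels shows. The 6 membrane and cholesterol transport genes summed to 109 and 161 RPKM in WT against 189 and 181 RPKM in the KO-labelled libraries, and the enzymes likewise did not overlap, although Psap alone gave 339.6 to 485 RPKM of the enzyme sum. The V1 sector summed to 79.8 and 109 RPKM in WT against 105.1 and 105.3 RPKM in the KO-labelled libraries, and the V0 sector to 103 and 131 RPKM in WT against 105 and 116 RPKM, both with overlap. The TFEB family summed to 13.0 and 7.997 RPKM in WT against 5.88 and 8.64 RPKM in the KO-labelled libraries. These sums follow the genes with the highest level and carry no test. As shares of all gene-assigned reads, which the authors' scaling does not touch, the 43 genes took 0.358% and 0.314% in WT and 0.708% and 0.600% in the KO-labelled libraries, alongside the larger protein-coding share of the latter.

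The order of levels depended on the length used. Footprints fall almost wholly on coding sequence, but the deposited RPKM divides by the whole gene length. Per kilobase of coding sequence, on the same library scale, Ctsb was highest with a mean of 740 (Psap 640.2, Ctsl 597), whereas per gene length Psap was well above Ctsb, at 390 against 124 RPKM. Npc2, with 447 coding bases in 5438 bases of gene length, moved from rank 12 to rank 4 of the 35 genes, and Hexa from rank 8 to rank 23. In the TFEB family Tfe3 was at 26.9 and moved from rank 29 to rank 24, whereas Mitf at 11.1 and Tfeb at 3.77 kept the last places. On this scale the tested V1 genes ran from 19.0 for Atp6v1c1 to 68.5 for Atp6v1g1, with Atp6v1a at 53.0 and Atp6v1b2 at 64.5. These are means over the 4 libraries. Atp6v1g1 was at 84.3 and 102 in WT but 24.9 and 63.0 in the KO-labelled libraries, where Atp6v1b2 was higher. The V0 genes ran from 15.1 for Atp6v0a2 to 136 for Atp6v0b, with Atp6v0c at 127 and Atp6v0e at 112. Atp6v0c was above Atp6v0b in WT replicate 1, at 196 against 59.3, and below it in the other libraries. The ranges of Atp6v1a and Atp6v1b2 over the libraries overlapped, although Atp6v1b2 was higher within each of the 4 libraries. Ratios between libraries do not depend on the length used.

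**Figure D4:**
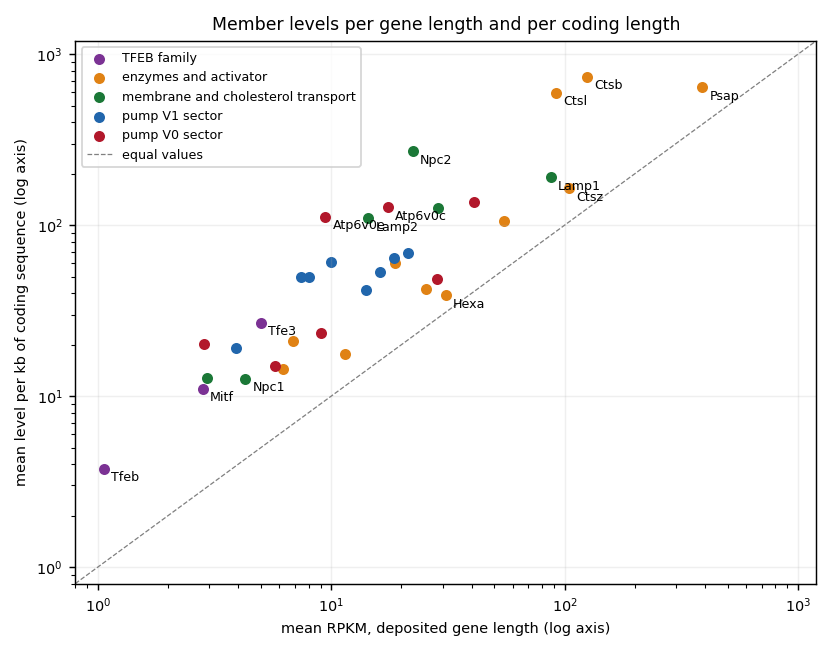
Mean level of the 35 tested genes per kilobase of deposited gene length (horizontal) and per kilobase of coding sequence (vertical), both on log axes and coloured by role, with a dashed line of equal values. Npc2, Ctsl, Ctsb and Atp6v0e lie far above the line.

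Genes of higher coding GC content had lower differences. Over the 35 genes Spearman's rho between coding GC content and log2 difference was -0.60, and over 9866 protein-coding genes it was -0.36. These are descriptions across genes of the same 4 libraries, and genes are not independent replicates. The median coding GC content of the tested lysosomal genes, 53.0%, was close to the 53.2% of protein-coding genes. The 18 genes at or above their median GC content had a median log2 difference of 0.07 and the 17 below it one of 0.37. Lamp2, Atp6v1h, Atp6v1c1 and Atp6v1d had the lowest GC content, from 42.5% to 45.9%, and all had positive differences, while Tfeb, Neu1 and Tfe3, at 60.6%, 60.6% and 58.9%, had negative ones and Gaa, at 59.3%, a positive one. Atp6v1g1 and Atp6v0c, at 57.6% and 57.0%, lay below the line of protein-coding medians, and Ctsl and Mcoln1 above it. With the trend removed Atp6v1g1 was at -1.07, Atp6v0c at -0.72, Ctsl at 0.89 and Mcoln1 at 1.12. The low-GC genes came closer to 0, Atp6v1h to 0.33, Atp6v1c1 to 0.41, Atp6v1d to 0.10 and Atp6v1e1 to 0.02. None of the 35 genes then had an adjusted p-value under 0.669. The part of GC content in the differences of single genes was not tested.

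**Figure D5:**
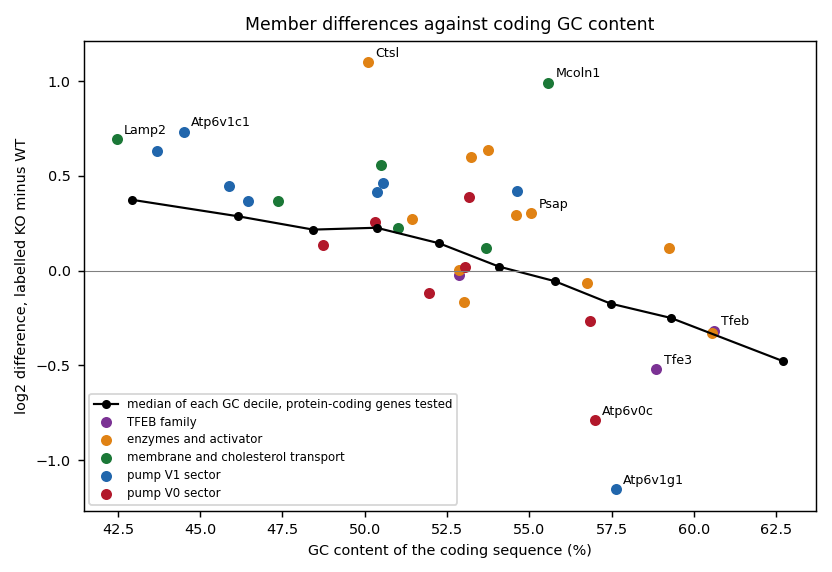
Log2 difference (KO-labelled libraries minus WT) of the 35 tested genes against the GC content of their coding sequence, coloured by role, with the medians of 10 GC classes of the protein-coding genes tested as a black line. The line falls from 0.37 to -0.48, and the coloured points run from 1.10 to -1.15.

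Hypusinated eIF5A is known to help ribosomes through consecutive prolines. A run of at least 3 proline codons (CCN, in the longest GENCODE coding sequence) was present in 5 of the 35 genes, against 25.8% of protein-coding genes. They were all 3 genes of the TFEB family and Ctsd, with a longest run of 3, and Npc1, with a run of 5. Their log2 differences were -0.52 for Tfe3, -0.32 for Tfeb, -0.02 for Mitf, -0.17 for Ctsd and 0.22 for Npc1. The value of Tfeb ran from -1.56 with voom and -1.46 with a pseudocount of 0.1 to -0.07 on total reads, 0.030 after correction for GC content and length and 0.47 without KO-labelled replicate 1, and that of Tfe3 was -0.24 after that correction and -0.01 on total reads. Neither Atp6v1g1 nor Atp6v0c had a run beyond 1.

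Other genes of the pathway were read from lists. Of the pump parts that the symbol rule leaves out, Tcirg1 (the a3 subunit), Atp6ap1 and Atp6ap2 (accessory subunits) all had KO-labelled libraries above WT, as had 22.4% of protein-coding genes, and did so on total reads too (46.5%). Atp6ap1 was at 29.1 and 33.0 RPKM in WT against 66.7 and 40.1 RPKM in the KO-labelled libraries, Atp6ap2 at 8.87 and 14.6 RPKM against 21.1 and 22.2 RPKM, and Tcirg1 at 10.8 and 12.0 RPKM against 19.6 and 17.2 RPKM. Their smallest adjusted p-value was 0.676. Of 43 other hydrolases and their partners 40 were tested, 31 with a positive and 9 with a negative difference and a median of 0.27. An unadjusted p-value under 0.05 with at least 2-fold, reached by 5.57% of protein-coding genes, was found for Galns (log2 difference of 1.22) and Gla (1.03), both hydrolases of glycans or glycolipids. Of 25 other membrane proteins 21 were tested, 12 positive and 9 negative, with a median of 0.13, and only the channel Tpcn1 met that criterion, at -1.27. Genes that sort hydrolases to the lysosome had a median of -0.25 with 5 of 13 above 0, and Nagpa, which uncovers the mannose 6-phosphate tag, met the criterion at -1.37. The list of the Rag-mTORC1 arm, which holds TFEB in the cytosol, also includes Tsc1, Tsc2 and the calcineurin genes Ppp3ca, Ppp3cb and Ppp3r1. Its genes thus do not all act on TFEB in the same direction. In this list 11 of 20 tested genes were positive with a median of 0.08. Lamtor1, the anchor of the Ragulator complex, met the criterion at -1.20 and Ppp3cb, a calcineurin subunit that releases TFEB, at 1.04. No gene of these lists had an adjusted p-value under 0.635. On total reads the 3 lower genes no longer met the criterion, Tpcn1 being at -0.92, Nagpa at -0.88 and Lamtor1 at -0.70. The median was then 0.21 for the sorting genes, with 8 of 13 above 0, 0.63 for the Rag-mTORC1 arm and 0.58 for the other membrane proteins, against 0.53 for protein-coding genes. The other hydrolases then had a median of 0.84 and the 3 other pump parts one of 1.32. Higher genes met the criterion in 8 of 40 other hydrolases, 3 of 3 pump parts, 3 of 21 other membrane proteins, 1 of 13 sorting genes and 3 of 20 genes of the Rag-mTORC1 arm, against 15.4% of protein-coding genes.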

How the data were processed

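Ribo-seq was performed by the authors on 2 WT and 2 eIF5A-KO libraries. The authors report removing rRNA and tRNA reads, although mitochondrial rRNA still took between 15.0% and 39.1% of the gene-assigned reads. Reads were aligned with TopHat2 (build mm10, that is GRCm38) and counted per gene with HTSeq. Versions and the treatment of strand and of reads matching several places are not given in the sources used here. The authors deposited 1 table of RPKM, whose library denominators matched median-of-ratios scaling rather than read totals. From the smallest step in RPKM times gene length, whole reads were recovered for 100% of non-zero values (tolerance 0.01).

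Members, lists and tests were chosen with earlier results of these data known. The test was limma 3.58.1 (R 4.3.3, eBayes with trend, two-sided, Benjamini-Hochberg over all genes tested) on log2(RPKM + 1), over 11363 genes (mean RPKM at or above 1). This scale understates the change of low genes. The pipeline was tested on simulated data. With 2 against 2 libraries an exact permutation test cannot give a p-value under 0.333. A count of 0 was taken to allow 3 reads; the floor covers counting error only. The named genes were the TFEB family, the highest gene of each other role, genes with an unadjusted p-value under 0.05 or separated at least 2-fold, the largest differences up to 4 per role, and pump paralogs. Other genes with values were named after these were seen. Coding length, GC content and proline codons came from GENCODE vM21 (99.8% of gene identifiers matched, 99.7% of them with the same start and end). Alternatives were a pseudocount of 0.1, no filter, a mean RPKM of at least 5, total-read and quantile scaling, protein-coding genes only, voom, the GC and length trend removed, a replicate block, and each library left out.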

Additional observations from a re-analysis of the deposited data

How the results depend on the processing

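Calls at the adjusted threshold stayed at 0 of the lysosomal genes in all 14 alternatives. Members past 2-fold with an unadjusted p-value under 0.05, 0 as reported, numbered 9 on total reads (all higher), 2 with voom, 1 (Atp6v1g1) among protein-coding genes only (7.93% of them met it) and 1 (Atp6v1g1) after the GC and length correction, replicate block included or not, and from 0 to 3 with a library left out: 1 without WT replicate 1, 3 without WT replicate 2, 0 without KO-labelled replicate 1 and 2 without KO-labelled replicate 2, against 5.57%, 11.0%, 1.72% and 2.98% of protein-coding genes. Genes whose groups do not overlap numbered 24 on total reads, and 21 to 32 with a library left out, where a lone value is more easily apart (against 15 as reported). The share of protein-coding genes was then 72.5%, 77.8%, 64.2% and 67.6% without WT replicate 1 and 2 and KO-labelled replicate 1 and 2, where 24, 32, 21 and 23 of the 35 lysosomal genes did not overlap.

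Total reads moved the median gene by 0.47. The medians were then 0.88 for enzymes, 1.06 for membrane genes, 1.00 for V1 and 0.52 for V0. With the GC and length trend removed, membrane genes were at 0.28 and V0 at -0.23, also with the replicate block. With a library left out the medians ran from 0.19 to 0.59 for membrane genes and from -0.21 to 0.13 for V0, from 0.12 to 0.37 for enzymes and from 0.24 to 0.65 for V1. Of all 35 tested genes, 6 changed sign on total reads (Ctsz, Ctsd, Neu1, Atp6v0d1, Mitf and Atp6v0e2), 4 with the GC and length trend removed (Ctsz, Glb1, Atp6v0e and Tfeb), 2 with quantile normalization (Ctsz and Mitf), 1 with voom (Atp6v0a2) and 1 with a pseudocount of 0.1 (Mitf). Among the genes named by rule and Eif5a, the values that changed sign were those of Mitf (0.18 with a pseudocount of 0.1, 0.35 on total reads, 0.029 with quantile normalization, -1.04 to 0.99 with a library left out), Tfeb (0.030 with the GC and length trend removed, -1.10 to 0.47 with a library left out), Atp6v0e2 (0.19 on total reads, -0.68 to 0.14), Atp6v0b (-0.45 to 1.23), Atp6v0a1 (-0.076 to 0.59) and Eif5a (-0.12 to 0.76). Leaving out a library assumes that the lone library varies like the other group. The replicate numbers did not pair the libraries (correlation of deviations 0.06); the block left 0 calls. Depth limits Tfeb and Atp6v0e2 most, with 16 and 18 reads. At a mean RPKM of at least 5 no gene of the TFEB family was left to give a median. The cause of these shifts was not tested.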
